A study of Lotus japonicus with 14 samples.

Results

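Among 38476 gene models of the legume Lotus japonicus, 192 were highest in nodules of the mutant apn1 collected 10 days after inoculation (dai) with Mesorhizobium loti strain TONO. They were chosen by their level in CPM, a read count scaled to a common library total with TMM factors, which correct for libraries of different composition. Each had at least 1 CPM in that library and at least 2-fold its level in every one of the other 13 libraries. The files give these gene models by identifier only and do not pair them with names or functions, so they are described by identifier and by level. The study compared wild type plants (MG20, Miyakojima) with the mutant apn1, labelled Fix- and spelled anp1 in the sample titles. Each genotype was measured as an uninoculated root and as nodules formed with strain MAFF303099 or strain TONO at 5, 7 and 10 dai, with 1 library per condition. All plants grew in vermiculite with a nitrogen-free medium and inoculated plants received M. loti 7 days after planting. Nodules and primordia were excised for extraction, and the labels name neither the age of the uninoculated roots nor the number of plants in a library. Since whole organs were extracted, more cells of a type and more RNA per cell cannot be told apart. Marker genes of the organs and APN1 itself were not analysed here, because the identifiers carry no names.

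Root nodules of legumes house rhizobia that fix nitrogen for the plant. Plant genes with roles in infection, organ growth, oxygen supply and nutrient exchange are switched on in sequence as a nodule forms. APN1 is a nodule-induced aspartic peptidase of Lotus japonicus, and the label Fix- stands for nodules that do not fix nitrogen. The counts do not show whether apn1 nodules lacked fixation with MAFF303099, with TONO or with both. Ineffective nodules are known to age early in several legumes.

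No condition had a replicate library. The chosen library held 33981124 counts, and the other 13 held 35130845 to 58395305. All 4 libraries of 10 dai were shallower than the others. In the chosen library 27349 gene models reached 1 CPM, within the range of 26628 to 27791 in the others, and its 5 most abundant gene models took 2.96% of the counts, against 2.89% to 5.16%. Its TMM factor was 1.004, and that of wild type with TONO at 10 dai was the lowest, at 0.76. The same rule applied to each other library in turn picked 0 to 51 gene models for the nodule libraries, 94 for the wild type root and 144 for the apn1 root.

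The 192 members ran from 1.06 to 2762 CPM in the chosen library, with a median of 9.20 CPM. There were 16 members at 100 CPM or more, 92 at 10 CPM or more and 69 under 5 CPM. Their median in the other 13 libraries lay between 0.93 CPM in apn1 with TONO at 5 dai and 1.99 CPM in apn1 with MAFF303099 at 10 dai. Together they took 1.01% of the counts of the chosen library (95% Wilson interval 1.007% to 1.014%) and 0.142% to 0.317% of the other libraries. Without the most abundant member these shares were 0.733% and 0.115% to 0.218%. The ratio of the chosen library to the next highest library had a median of 2.62, with 47 members at 4-fold or more and 6 at 10-fold or more. These values chose the members, so they carry no test. At the 2-fold limit, chr1.CM0284.100.r2.d (1.70 CPM, ratio 2.0033) and chr2.CM0056.220.r2.d (15.1 CPM, ratio 2.0061) lay just inside, and chr6.CM0013.1730.r2.d (2.96 CPM, ratio 1.9963) and LjSGA_061401.1 (1.82 CPM, ratio 1.9935) just outside.

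**Figure D1:**
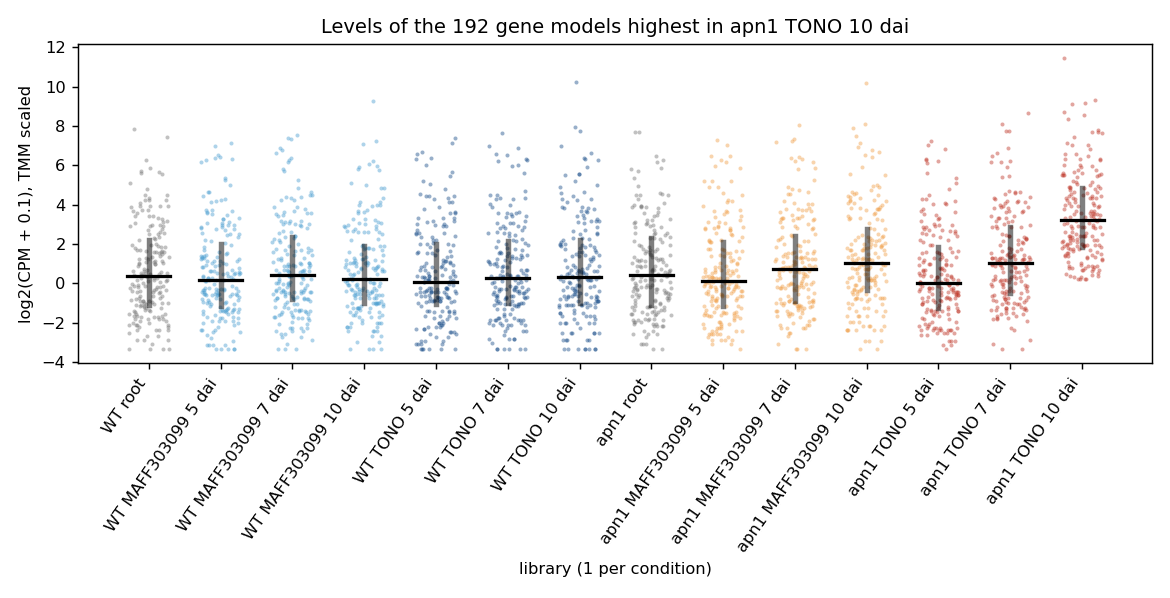
Level of each of the 192 members (points) in the 14 libraries, as log2 of CPM plus 0.1, with the median (line) and quartiles (bar); colours mark the root, the genotype and the strain. The medians of the other 13 libraries lie between 0.93 and 1.99 CPM, and that of apn1 with TONO at 10 dai is 9.20 CPM.

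The most abundant member was chr4.CM0007.550.r2.m. It had 2762 CPM in the chosen library, 131 CPM and 408 CPM in apn1 with TONO at 5 and 7 dai, and 102, 65.7 and 1192 CPM in wild type with TONO at 5, 7 and 10 dai. With MAFF303099, wild type nodules of 5, 7 and 10 dai had 84.4, 116 and 627 CPM, those of apn1 had 78.3, 262 and 1174 CPM, and the roots had 19.0 CPM in wild type and 7.79 CPM in apn1. Every nodule library was thus above both roots. In all 4 combinations of genotype and strain 10 dai was the highest day, which the rule required in apn1 with TONO.

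The second most abundant member, chr6.CM0336.90.r2.m, had 630.1 CPM in the chosen library. Its other 13 libraries were close to each other, from 131 CPM in apn1 with MAFF303099 at 5 dai to 212 CPM in apn1 with TONO at 7 dai, with 171 and 204 CPM in the wild type and apn1 roots. At 5, 7 and 10 dai wild type had 167, 199 and 211 CPM with TONO and 142, 165 and 135 CPM with MAFF303099, and apn1 with MAFF303099 had 131, 148 and 177 CPM. The level was thus ordered by age in 2 of these 3 courses, with steps smaller than the distance from any of them to the chosen library.

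Another abundant member, chr2.CM0667.20.r2.a, was the one of at least 100 CPM whose next highest library came closest, at a ratio of 2.04. It had 48.0, 275 and 561 CPM in apn1 with TONO at 5, 7 and 10 dai and 62.4, 164 and 240 CPM in apn1 with MAFF303099. In wild type it peaked at 7 dai, with 50.4, 127 and 46.5 CPM with TONO and 92.6, 184 and 55.3 CPM with MAFF303099, and the roots had 22.3 and 40.6 CPM. With both strains apn1 was below wild type at 5 dai and above it at 10 dai.

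The members with the largest ratio to the next library were almost silent elsewhere. LjSGA_014379.2 had 694 counts in the chosen library and 0 to 19 counts in each of the other 13, which is 20.3 CPM against at most 0.55 CPM. Its next highest library was wild type with TONO at 10 dai, at a ratio of 36.8 that rests on 15 counts there. The gene model chr2.CM0020.90.r2.d had 247 counts against 0 to 9, or 7.24 CPM against at most 0.22 CPM, a ratio of 32.7. At 7 dai apn1 with TONO had only 11 and 1 counts of them. In all, 49 members stayed under 1 CPM in all 13 other libraries. They had 1.06 to 20.3 CPM in the chosen library, with a median of 1.82 CPM. Any member at or below that median had to be under 1 CPM elsewhere, because the rule set every other library at least 2-fold lower. The count of 49 is thus in part fixed by the rule.

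In uninoculated roots the members fell into classes. Of the 192, 78 (40.6%) were under 1 CPM in both roots, 97 (50.5%) had at least 1 CPM in both, and 17 had it in 1 root. Among all 27349 gene models of at least 1 CPM in the chosen library, 4.69% were under 1 CPM in both roots and 92.8% were above it in both. The rule set every member at least 2-fold lower in both roots than in the chosen library, and set no such cap on the 27349. The gap between these shares is thus in part fixed by the rule and carries no test. Only 1 of the 78 had 0 counts in both roots. There a count of 0 allows up to 0.0574 CPM in wild type and 0.0547 CPM in apn1, before TMM factors. The 78 had medians of 0.27 and 0.29 CPM in the roots, 0.25 to 0.52 CPM in the other nodule libraries and 3.33 CPM in the chosen library. The 97 root-expressed members had medians of 4.45 and 4.76 CPM in the roots, 3.27 to 5.11 CPM in the other nodule libraries and 24.8 CPM in the chosen library.

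Among the members under 1 CPM in both roots, chr1.CM2049.20.r2.m was the most abundant, with 0.82 CPM in the wild type root and 0.45 CPM in the apn1 root. It was near this level at 5 dai, at 0.26 to 0.53 CPM in the 4 combinations, and had 17.7 to 25.0 CPM at 7 dai in all of them. At 10 dai it had 6.04 and 12.2 CPM in wild type with MAFF303099 and TONO and 12.1 CPM in apn1 with MAFF303099, all lower than at 7 dai, and 94.2 CPM in apn1 with TONO. The drop after 7 dai was thus seen in 3 combinations. In apn1 with TONO the rule required a rise of at least 2-fold between 7 and 10 dai.

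Whether the members differed between nodules and roots in the libraries that did not choose them was tested in a model of the other 13 libraries (edgeR quasi-likelihood, Benjamini-Hochberg adjusted p under 0.05, two-sided). The model has terms for root, combination and day; with no replicates its p-values measure what these additive terms leave over. The model covered 32800 gene models and 174 members, since 18 members had a mean scaled count under 10 outside the chosen library. The rule capped the level of every member in these 13 libraries at 2-fold under the chosen one, so that the tests describe how the members varied below that cap. Of the 174 members tested, 23 (13.2%) were higher in nodules than in roots, against 23.5% of all gene models, and 19 (10.9%) were lower, against 25.7%. The remaining 132 did not pass. The median log2 difference was 0.04 over the members and 0.00 over all gene models. Both shares called were below those of all gene models. Without the wild type root the calls were 14 higher and 10 lower, and without the apn1 root 12 were lower. Whether the low counts of many members lowered these shares was not tested. In single nodule libraries against their root, 7.29% to 28.6% of the members were at least 2-fold higher, against 12.7% to 16.6% of all gene models. At least 2-fold lower were 5.73% to 24.5%, against 13.6% to 20.9%.

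The 2 members with the largest rise over roots that went the same way in all 11 other nodule libraries were LjSGA_038787.1 and chr4.CM0007.550.r2.m. LjSGA_038787.1 had 0.09 and 0.19 CPM in the wild type and apn1 roots, 0.34 to 1.41 CPM at 5 dai, and 2.62 to 4.67 CPM at 7 and 10 dai in wild type. In apn1 it had 9.23 and 15.5 CPM with MAFF303099 at 7 and 10 dai and 20.1 and 50.0 CPM with TONO. The wild type and apn1 libraries of 7 and 10 dai did not overlap. Its log2 fold change over roots was 4.64 (SE 1.03, edgeR adjusted p = 0.00344), and that of chr4.CM0007.550.r2.m was 4.38 (SE 0.58, edgeR adjusted p = 0.000112).

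Conversely, chr4.CM0432.2580.r2.a was a root gene model that was low in every other nodule library. It had 8.97 and 9.73 CPM in the roots, 1.12 to 3.94 CPM in the other 11 nodule libraries and 64.2 CPM in apn1 with TONO at 10 dai, where it was 6.61 times its next highest library, the apn1 root. At 7 dai the same combination still had 2.27 CPM. In the 13 other libraries its nodule to root log2 ratio was −1.97 (SE 0.16, edgeR adjusted p = 3.87e-06). The gene model chr3.CM0423.190.r2.m had 8.63 and 7.13 CPM in the roots, 1.10 to 3.24 CPM in the other nodules and 35 CPM in the chosen library, and its nodule to root log2 ratio outside it was −1.91 (SE 0.19, edgeR adjusted p = 1.54e-05). For both, the roots and the other nodule libraries did not overlap.

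Nodule age was tested as 10 against 5 dai in the same model, in which apn1 with TONO enters at 5 and 7 dai only. Of the 174 members, 45 (25.9%) were higher at 10 dai, against 24.8% of all gene models, and 7 (4.02%) were lower, against 24.2%. The share called higher is near the background, and the share called lower is below it. A call also depends on the count, and the members had medians of 0.93 to 1.99 CPM in these 13 libraries. Whether this lowered the shares called was not tested. The median log2 difference was 0.33 over the members and 0.00 over all gene models, and 126 of 174 members were above 0. Leaving out apn1 with MAFF303099 at 10 dai gave 33 higher and 12 lower. The 45 included 44 that went the same way in wild type with either strain and in apn1 with MAFF303099, and all 7 that fell did so.

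The difference with age varied between the combinations, with no test of that variation. In apn1 with MAFF303099, 123 of 192 members (64.1%) had their highest nodule level at 10 dai, against 38.3% of all gene models tested. In wild type the share was 35.9% with MAFF303099 and 44.3% with TONO, against 39.8% and 39.0% of all. The median log2 difference between 10 and 5 dai was 0.62 in apn1 with MAFF303099, 0.20 in wild type with TONO and 0.08 in wild type with MAFF303099, where all gene models had −0.02, 0.00 and 0.00. At least 2-fold higher at 10 dai were 35.4%, 20.8% and 19.8% of the members in the same order, against 11.8%, 14.7% and 12%. At least 2-fold lower were 5.21%, 14.6% and 14.1%, against 16.2%, 18% and 15.4%. Each of these differences sets 1 library against 1, with no replicate check.

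In apn1 with TONO most members were above their 5 dai level at 7 dai. Of the 192, 150 were higher at 7 dai (78.1%, against 51% of all gene models tested), with a median log2 difference of 0.66. At least 2-fold higher at 7 dai were 72 members (37.5%, against 8.85%) and 6 were at least 2-fold lower (3.12%, against 6.88%). The same step gave a median of 0.32 in apn1 with MAFF303099, where 39 members were at least 2-fold higher (20.3%, against 7.86%) and 10 lower (5.21%, against 6.27%). In wild type with MAFF303099 the median was 0.17, with 33 higher (17.2%, against 7.35%) and 14 lower (7.29%, against 5.81%). In wild type with TONO it was 0.03, with 30 higher (15.6%, against 9.87%) and 25 lower (13%, against 8.11%). A group of 54 members (28.1%, against 7.26% of all gene models tested) reached at least 1 CPM at 7 dai with at least 2-fold the level of 5 dai in apn1 with TONO. Their medians were 0.90, 4.19 and 11.9 CPM at 5, 7 and 10 dai there, 1.08, 1.99 and 3.39 CPM in apn1 with MAFF303099, and 0.95, 1.41 and 1.33 CPM in wild type with TONO. The other 138 members, set apart by that limit, had medians of 0.99, 1.07 and 6.54 CPM in apn1 with TONO, and 96 of them were also higher at 7 than at 5 dai.

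The largest rises between 5 and 10 dai among called members were those of chr1.CM2121.20.r2.a and chr1.LjB20D08.70.r2.m. The first had 13.2 and 14.3 CPM in the roots and 1.03 to 1.35 CPM in all 4 combinations at 5 dai. It had 5.79 to 26.6 CPM at 7 dai and reached 15.5, 47.6 and 47.3 CPM at 10 dai in wild type with MAFF303099, wild type with TONO and apn1 with MAFF303099, and 140.2 CPM in apn1 with TONO. Its log2 fold change of 10 over 5 dai, without the chosen library, was 4.83 (SE 0.49, edgeR adjusted p = 1.64e-05). The second, chr1.LjB20D08.70.r2.m, had at most 0.24 CPM in roots and at 5 dai, 7.24 to 8.08 CPM in the 4 combinations at 7 dai, then 3.29 to 5.17 CPM at 10 dai in 3 of them and 20.3 CPM in apn1 with TONO (log2 fold change of 10 over 5 dai 4.73, SE 0.39, edgeR adjusted p = 3.93e-06). All 4 combinations were thus alike at 7 dai, and 3 of them fell afterwards. The later rise in apn1 with TONO was required by the rule.

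The largest falls with age were those of chr3.CM0786.310.r2.a and chr3.CM0127.770.r2.d. At 5 dai chr3.CM0786.310.r2.a had 1.22 to 2.50 CPM, close to the 1.73 and 1.78 CPM of the roots, and at 10 dai 0.24, 0.70 and 0.66 CPM in wild type with MAFF303099, wild type with TONO and apn1 with MAFF303099, against 6.95 CPM in apn1 with TONO. Its log2 fold change outside that library was −1.84 (SE 0.34, edgeR adjusted p = 0.0012). For chr3.CM0127.770.r2.d the levels were 6.39 to 9.52 CPM at 5 dai, 2.20 to 4.42 CPM at 10 dai in the 3 other combinations and 26.6 CPM in apn1 with TONO, which had been the lowest of the 4 at 7 dai, at 2.37 CPM (log2 fold change −1.20, SE 0.32, edgeR adjusted p = 0.0103). Both were lower at 10 than at 5 dai in the 3 other combinations. That both were highest of all libraries in the chosen one follows from the rule.

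**Figure D2:**
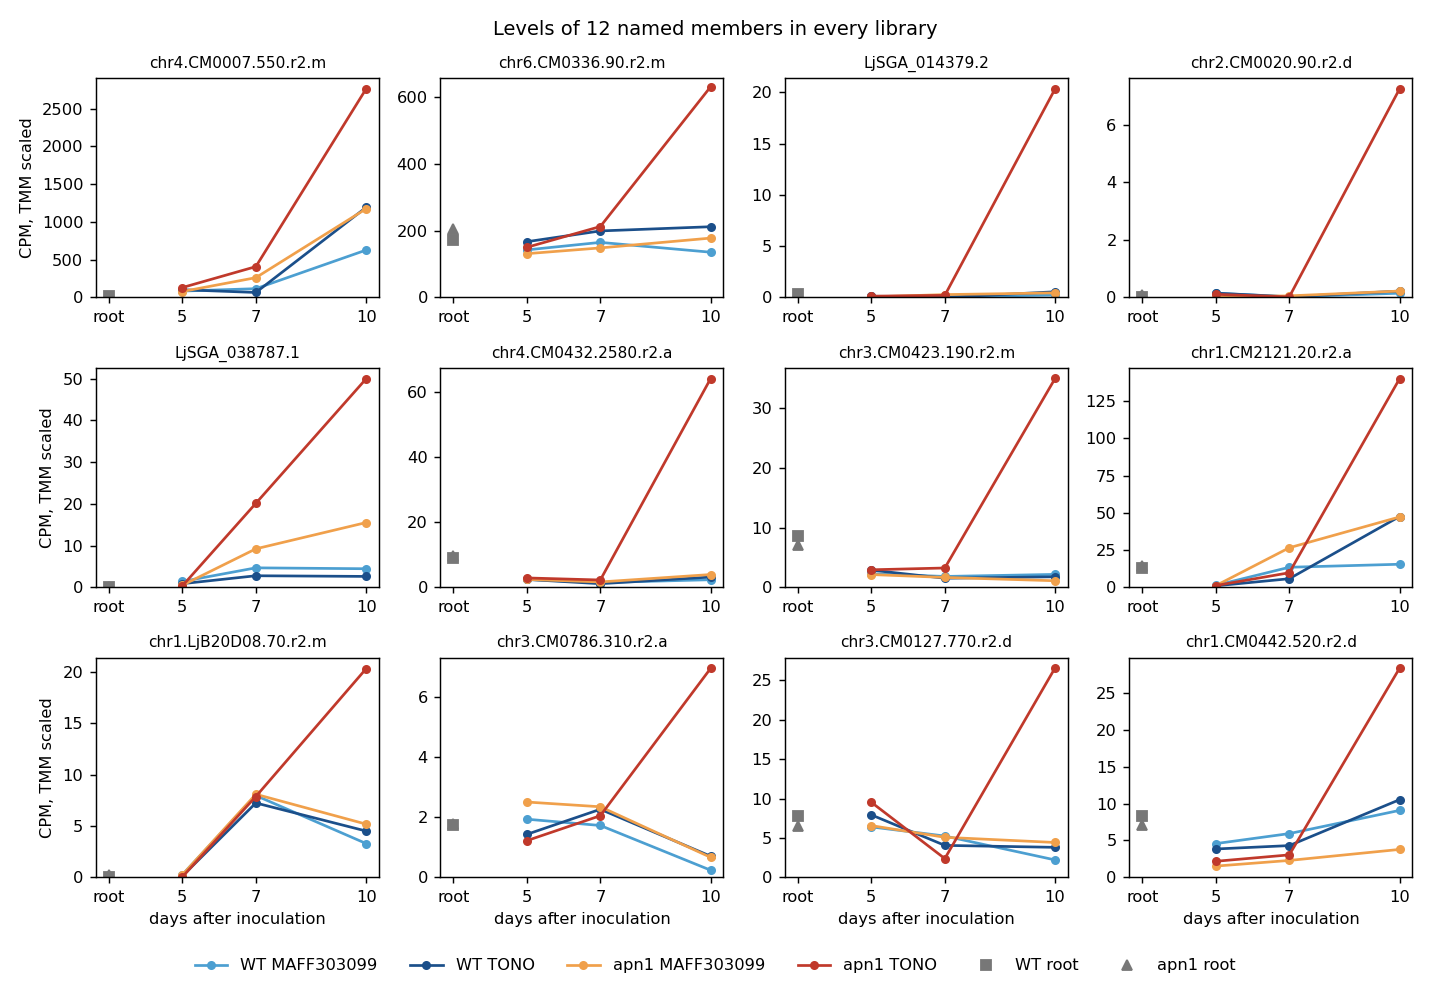
CPM of 12 named members against days after inoculation in the 4 combinations of genotype and strain (lines), with the roots at the left (grey square, wild type; grey triangle, apn1), 1 library per point, and the vertical scale set per panel from 0. LjSGA_014379.2 and chr2.CM0020.90.r2.d are near 0 outside the last apn1 TONO library, while chr4.CM0007.550.r2.m and chr1.CM2121.20.r2.a are highest at 10 dai in every combination.

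The members were then followed in the pairs of apn1 and wild type libraries that were not the one used to choose them. With TONO at 7 dai the median member was higher in apn1 by 0.47 on the log2 scale, and all gene models had a median of 0.00. There, 61 members (31.8%) were at least 2-fold higher in apn1, against 4.16% of all gene models, and 2 (1.04%) at least 2-fold lower, against 2.3%. With MAFF303099 at 10 dai the median was 0.57, against −0.04 over all, with 62 members (32.3%, against 5.61%) at least 2-fold higher and 8 (4.17%, against 5.69%) lower. The medians of earlier pairs were near 0. At 5 dai the medians were −0.01 with MAFF303099 and −0.11 with TONO, and at 7 dai with MAFF303099 0.09. At 5 dai with MAFF303099, 11 members (5.73%, against 2.13%) were at least 2-fold higher and 15 (7.81%, against 2.09%) lower. At 5 dai with TONO these were 19 (9.9%, against 3.28%) and 9 (4.69%, against 2.18%). At 7 dai with MAFF303099 they were 19 (9.9%, against 2.7%) and 6 (3.12%, against 2.2%). Over all 192, the members in these pairs thus exceeded the shares of all gene models in both directions. In the uninoculated roots the median was 0.11, with 16 members at least 2-fold higher in apn1 (8.33%, against 3.04%) and 13 lower (6.77%, against 2.5%). Among members of at least 10 CPM in the chosen library, a set added after seeing the data, this was not seen in every pair. There, 2.17% were at least 2-fold higher and 5.43% lower at 5 dai with MAFF303099, and 2.17% and 4.35% with TONO. At 7 dai with MAFF303099 these were 7.61% and 1.09%, and in the roots 2.17% and 6.52%. With TONO at 7 dai and MAFF303099 at 10 dai, 33.7% and 34.8% of this set were at least 2-fold higher. In the pair that chose the members, TONO at 10 dai, the median was 2.67, and 189 of 192 were at least 2-fold apart on this scale, against 12% of all. Each pair is 1 library against 1.

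**Figure D3:**
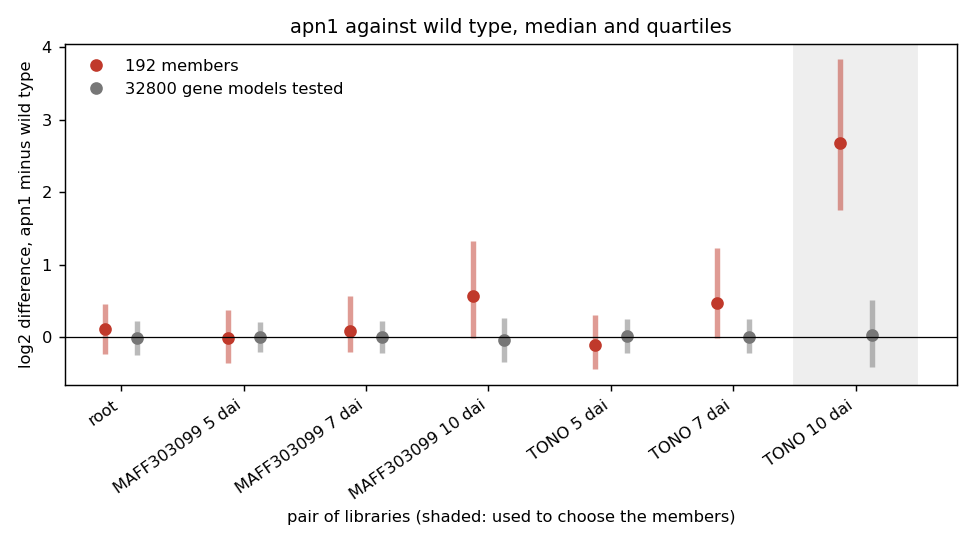
Log2 difference in CPM between apn1 and wild type for each pair of libraries, as median (point) and quartiles (bar) over the 192 members (red) and over 32800 gene models (grey). The members stand at 0.57 with MAFF303099 at 10 dai and 0.47 with TONO at 7 dai and near 0 at 5 dai; the shaded pair chose the members.

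The pairs at TONO 7 dai and MAFF303099 10 dai have no library in common. Of the members at least 2-fold higher in apn1, 33 were on both lists, which is 54.1% of the 61 and 53.2% of the 62. Among all gene models tested, 25.4% of the first list and 18.8% of the second were on both. The 2 most abundant of the 33 are chr2.CM0667.20.r2.a, described above, and chr4.CM0244.740.r2.m, picked here with its values in view. The latter had 34.4 and 30.9 CPM in the wild type and apn1 roots, and 17.9 to 20.3 CPM at 5 dai in all 4 combinations. In wild type it stayed at 22.4 and 20.3 CPM with MAFF303099 and 22.3 and 29.8 CPM with TONO at 7 and 10 dai. In apn1 it reached 38.4 and 86.5 CPM with MAFF303099 and 99.8 and 208.5 CPM with TONO. At 7 and 10 dai both apn1 time courses were above every other library, while the wild type ones stayed within the range of the roots and of 5 dai. The rule and both lists set apn1 above wild type of the same day with TONO at 7 and 10 dai and with MAFF303099 at 10 dai. Only the level with MAFF303099 at 7 dai was left free by the choice.

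Over several days the difference between the lines did not pass a test for nearly all members. With MAFF303099 over 3 days, 0 of 174 members were higher in apn1 with edgeR, against 0.0396% of all gene models, and 1 was lower, against 0.00305%. That member was the only 1 of the 32800 gene models called lower, so the share of 0.00305% is the member itself. An unadjusted p under 0.05 was reached by 23 members (13.2%, against 10.2% of all). DESeq2 called 1 member higher and 1 lower, against 0.86% and 0.317% of all gene models. With limma-voom these were 0 and 1, against 0.0671% and 0.00915%. The member called higher by DESeq2 was LjSGA_085280.1, named here because of that call. With MAFF303099 at 5, 7 and 10 dai it had 1.35, 1.97 and 1.73 CPM in wild type and 3.07, 3.69 and 5.08 CPM in apn1, with a log2 fold change of 1.20 and an adjusted p of 3.03e-05 from DESeq2 and 0.0839 from edgeR. With TONO, where apn1 enters at 5 and 7 dai, 0 of 174 members were higher and 0 lower with edgeR, against 0% of all gene models in each direction, and 18 had an unadjusted p under 0.05 (10.3%, against 6.11%). DESeq2 and limma-voom also called 0 members in each direction, against 0.0701% higher and 0.0762% lower of all gene models with DESeq2 and 0% and 0% with limma-voom. The median fitted log2 difference was 0.25 with MAFF303099 and 0.28 with TONO, against −0.01 and −0.02 over all. A p above the threshold does not show that the lines were alike.

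The member that was lower in apn1 with MAFF303099 was chr1.CM0442.520.r2.d. With MAFF303099 its wild type libraries of 5, 7 and 10 dai had 4.58, 5.94 and 9.09 CPM and those of apn1 1.52, 2.29 and 3.79 CPM, so that the lines did not overlap (log2 fold change −1.41, SE 0.17, edgeR adjusted p = 0.0277, lower on 3 of 3 days). With TONO wild type had 3.85, 4.31 and 10.6 CPM and apn1 2.17, 3.04 and 28.4 CPM on the same days. Only in the chosen library was apn1 above wild type, and the rule required that of every member. The roots had 8.28 CPM in wild type and 7.11 CPM in apn1. The call was lost when any of the 6 MAFF303099 libraries, or apn1 with TONO at 5 or at 7 dai, was left out, and in a fit of the MAFF303099 libraries alone, while the log2 fold change stayed between −1.54 and −1.34 over 18 alternatives.

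The library in which a member was next highest was apn1 with MAFF303099 at 10 dai for 49 members (25.5%) and apn1 with TONO at 7 dai for 37 (19.3%). Of the gene models with at least 1 CPM in the chosen library, 7.29% and 2.51% had their highest other level there. All 5 other apn1 nodule libraries together held 110 members (57.3%, against 24%), the 7 wild type libraries 69 (35.9%, against 64.4%) and the 2 roots 27 (14.1%, against 25.4%). Wild type with TONO at 10 dai was next highest for 22 members (11.5%, against 15.4%) and wild type with TONO at 7 dai for 1. These shares are a description with no test.

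**Figure D4:**
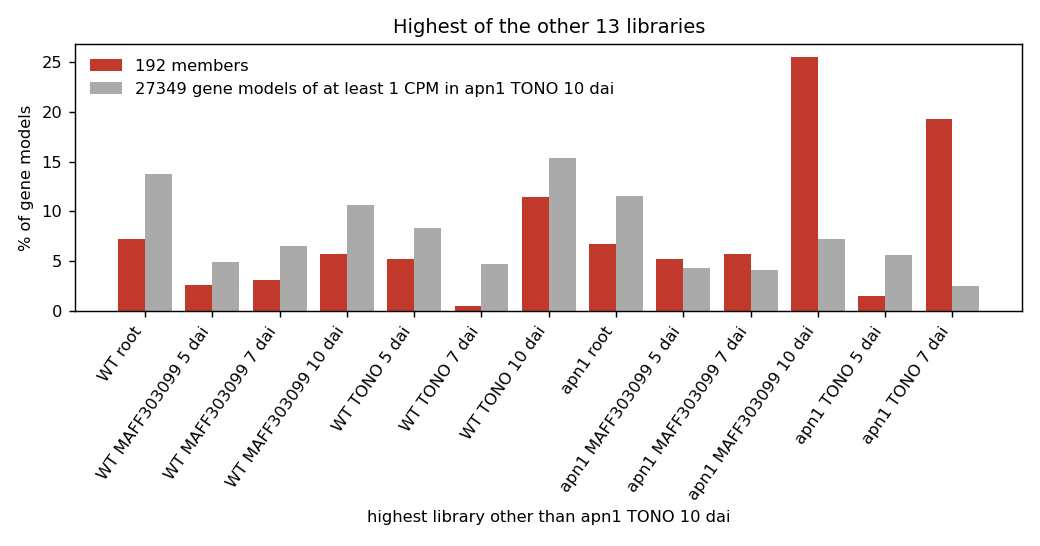
Percentage of gene models whose highest library other than apn1 TONO 10 dai is the one named, for the 192 members (red) and for the 27349 gene models of at least 1 CPM in that library (grey). The 2 highest red bars are apn1 with MAFF303099 at 10 dai, 25.5%, and apn1 with TONO at 7 dai, 19.3%.

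Between the strains in apn1, the median member was higher with TONO by 0.27 on the log2 scale at 7 dai, and the difference at 5 dai was −0.03. At 7 dai 34 members were at least 2-fold higher (17.7%, against 2.43%) and 5 lower (2.6%, against 2.56%). In wild type the medians were 0.01, −0.17 and 0.17 at 5, 7 and 10 dai, with 22 members at least 2-fold higher with TONO at 10 dai (11.5%, against 5.34%) and 24 lower (12.5%, against 7.19%). Against the root of the same line, the median member stood at 0.51 in apn1 with MAFF303099 at 10 dai, with 55 at least 2-fold higher (28.6%, against 14%) and 13 lower (6.77%, against 18.2%). It stood at 0.29 in apn1 with TONO at 7 dai, with 41 higher (21.4%, against 14.1%) and 11 lower (5.73%, against 13.6%). It lay between −0.22 and 0.06 in the 6 wild type nodule libraries, at 0.01 in apn1 with MAFF303099 at 7 dai, and at −0.25 and −0.35 in apn1 at 5 dai. At 10 dai in wild type 35 members were at least 2-fold above the root with MAFF303099 (18.2%, against 16.6%) and 37 below it (19.3%, against 19.6%), and with TONO 33 were above (17.2%, against 16%) and 42 below (21.9%, against 20.9%). These differences share libraries with those between the lines.

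By identifier, 76 members (39.6%) were LjSGA models, against 39% of the gene models of at least 1 CPM, and 36 (18.8%) were numbered on chromosome 1, against 14.5%. Of the 116 members with a number on a contig, 14 (12.1%) stood next to another member, in 7 pairs, and no run was longer than 2. Here next to means that no other gene model of the data lay between them in the order of numbers. No share over all 22232 numbered gene models was computed, so whether 12.1% is high was not tested. The pair with the highest level was chr2.CM0120.50.r2.m and chr2.CM0120.30.r2.m. The first had 230 and 206 CPM in the wild type and apn1 roots, 58.8 to 79.4 CPM at 5 dai, 119 to 214 CPM at 7 dai, 148 to 275 CPM at 10 dai outside the chosen library and 578 CPM in it. The second had 0.09 to 0.30 CPM in the other 13 libraries and 1.82 CPM in the chosen one. In the pair chr4.CM0061.240.r2.m and chr4.CM0061.250.r2.m, chosen after their values were seen, both members stood apart in the chosen library alone, at 24.8 and 44.8 CPM against 3.07 to 6.49 and 4.48 to 10.96 CPM. Whether neighbouring models share reads was not tested, and neither strand use nor overlap of the models is stated in the labels or files.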

How the data were processed

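The authors deposited 12 tables, each with 1 nodule library and the root library of its genotype; per the file headers they hold the original read count and an iDEGES/DESeq normalized value per gene model. The deposited normalized signal is that count over a size factor set anew in each table, so it was not used. Bowtie2 2.0.2 and DESeq are the tools listed per the submitters' processing notes. For genome build, annotation, counter and strand use the entry is: not given in the sources used here. Root counts were identical across tables in 10 of 10 repeats, and each root was used once. None of the identifiers (0 of 38476) matched the gene table supplied, of assembly LjGifu_v1.2, so no names and no sequences are given. The groups come from the sample titles.

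Total counts ran from 33981124 to 58395305 per library. A count of 0 thus allows 0.0514 to 0.0883 CPM (3 counts) on the total count, before TMM factors. On the TMM scale the floor is higher where the factor is under 1, as in wild type with TONO at 10 dai (0.76). Intervals and floors cover counting error only. Members were chosen from TMM CPM of all 14 libraries. Tests used edgeR 4.0.16 (R 4.3.3) on the counts of the 13 other libraries, for gene models with a mean scaled count of at least 10, with root or combination and day as additive terms (6 residual degrees of freedom, biological coefficient of variation 19.4%), adjusted over all 32800. Standard errors are the fold change over the square root of F. Pairs of libraries were compared as log2 CPM with a prior count of 2. Member shares in pairs are over all 192, while those of all gene models are over the 32800 tested. Over the 174 members tested, 31.6% were at least 2-fold higher in apn1 with TONO at 7 dai. With MAFF303099 at 10 dai this was 32.8%. Alternatives were DESeq2 1.42.0, limma-voom 3.58.1, other scalings, filters and left-out libraries. The rule and the model were tested on simulated data. Figures used Python 3.11.15 and matplotlib 3.10.9. Named gene models are the 2 with the highest CPM (over all members and by root class), the largest ratio, the edges of the rule, the 2 largest called changes per direction and contrast with the same sign in every pair, the strongest neighbour run, and the member of at least 100 CPM with the smallest ratio. The members, the rule for names and the tests were chosen with earlier results of these data known.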

Additional observations from a re-analysis of the deposited data

Results flagged for a closer look

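In 8 of the 192 members (4.17%, against 9.88% of all gene models tested) the difference between apn1 and wild type went one way in every MAFF303099 pair and the other way in both TONO pairs of 5 and 7 dai, leaving out TONO at 10 dai, which chose the members. Of these, 3 are among the gene models named by rule. For chr3.CM0423.190.r2.m the median log2 difference was −0.13 with MAFF303099 (−0.08, −0.13 and −0.95 at 5, 7 and 10 dai) and 0.55 with TONO (0.03 and 1.07 at 5 and 7 dai). For chr3.CM0786.310.r2.a it was 0.44 with MAFF303099 (0.37, 0.44 and 1.35) and −0.18 with TONO (−0.22 and −0.14). For chr1.CM2049.20.r2.m it was 0.85 with MAFF303099 (0.85, 0.18 and 0.99) and −0.20 with TONO (−0.27 and −0.12). The interaction of line and strain, fitted with edgeR on the 13 libraries, had adjusted p-values of 0.573, 0.65 and 0.592 for them. Among the 8, LjSGA_061427.1 had the smallest interaction p and is named here for that reason. Its log2 differences were −0.89, −0.89 and −0.22 with MAFF303099 and 1.39 and 2.10 with TONO, all from libraries in which it was under 1 CPM, and the interaction was 2.67 (SE 0.55, edgeR adjusted p = 0.263). The interaction was called for 0 of 174 members, against 0.0061% of all gene models, and 13 members had an unadjusted p under 0.05 (7.47%, against 8.22%).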

How the results depend on the processing

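The number of members was 181 to 203 under median-of-ratios, upper-quartile or no scaling and when libraries were thinned to the smallest total, with 179 to 188 of the 192 kept. It was 123 with a minimum of 5 CPM and 47 with a 4-fold limit. No paired analysis was possible because the labels carry no replicate numbers; the comparison of the lines is made within days by the day term of the model. With 1 library left out, members higher in nodules than roots numbered 14 to 29 and lower 10 to 28, higher at 10 than 5 dai 33 to 48 and lower 5 to 12, and lower in apn1 with MAFF303099 0 to 1; members higher in apn1 with either strain, and lower with TONO, stayed at 0 to 0. With DESeq2 1 member was higher in apn1 with MAFF303099, and with the MAFF303099 libraries alone 0 were lower. In the other alternatives listed for these counts (limma-voom, upper-quartile scaling, no filter, and the smaller sets of libraries) each count stayed within 1.5 times. Of the 9 members named for a called change, 0 reversed in 17 or 18 alternatives each; chr1.CM0442.520.r2.d missed the threshold in 9 of 18 alternatives and chr3.CM0127.770.r2.d in 1 of 18. Added after seeing the data, members of at least 10 CPM gave a median of 0.75 for apn1 against wild type with MAFF303099 at 10 dai, and raw totals 0.55. Without scaling factors the median of all gene models for apn1 against wild type with TONO at 10 dai moved to 0.42, and that of the members to 3.06. With 1 library per condition, no difference has a replicate error of its own.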
